A study of Mus musculus with 9 samples.

Results

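The PIWI proteins and the main factors that make their small RNAs were followed in mouse testis through 10 genes: Piwil1, Piwil2, Piwil4, Mov10l1, Mael, Asz1, Pld6, Henmt1, Gtsf1 and Ddx4. They were chosen by name, as the rows of the deposited expression table that carry one of these symbols. All 10 were found, in 12 of the table's 29661 rows, among 23389 genes in all. The comparison sets 3 RNA-seq libraries of testis with the genotype Lin28a knockout, titled cKO, against 3 of wild type, all of strain C57BL/6 at postnatal day 10, in a study of how LIN28A affects the translation of the meiotic transcripts it binds. The labels used here name no Cre line or promoter and do not say whether libraries came from separate animals. A further 3 samples, in which RNA bound to LIN28A was recovered by CLIP, were not analysed here. The table gives FPKM (fragments scaled to transcript length and library size) as 1 pooled value per group, in columns named case and control, so the levels come without any measure of how libraries varied, and the depth is unknown.

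PIWI proteins are the germline branch of the Argonaute family. They carry piRNAs, small RNAs longer than microRNAs that guide cleavage of transposon transcripts in the cytoplasm and DNA methylation of transposons in the nucleus. In the mouse testis PIWIL2 (MILI) is present from fetal germ cells to spermatids, PIWIL4 (MIWI2) acts mainly in fetal and newborn germ cells, and PIWIL1 (MIWI) accumulates with the pachytene piRNAs of later meiosis. The other genes act around them, in germ granules and on the surface of mitochondria, to cut, methylate and hand over piRNAs.

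From its name alone, the case column was taken to be the knockout. Lin28a itself, the targeted gene, had 23.4 FPKM there against 8.82 in the control column (q = 0.00191, the authors' deposited table). That goes against the reading, but the level does not show which part of the gene its reads come from. It thus cannot settle which column is the knockout. For that reason the columns are only called the case column and the control column here, and every direction rests on those names.

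The 10 genes spanned from 1.59 to 92.8 FPKM as the mean of the columns, and their order by level was the same in both. Mael and Ddx4 were the most abundant, followed by Piwil2, Mov10l1, Gtsf1, Asz1, Pld6, Henmt1, Piwil4 and Piwil1. Which neighbours in this order differ beyond the spread of libraries cannot be said, since each column is a pooled value. Among the 12665 genes with a mean of at least 1 FPKM, Mael was above 95.8% and Ddx4 above 93.8%, whereas Piwil4 was above 13.7% and Piwil1 above 5.95%. In bulk testis, fewer cells of a type and less RNA per cell cannot be told apart.

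**Figure D1:**
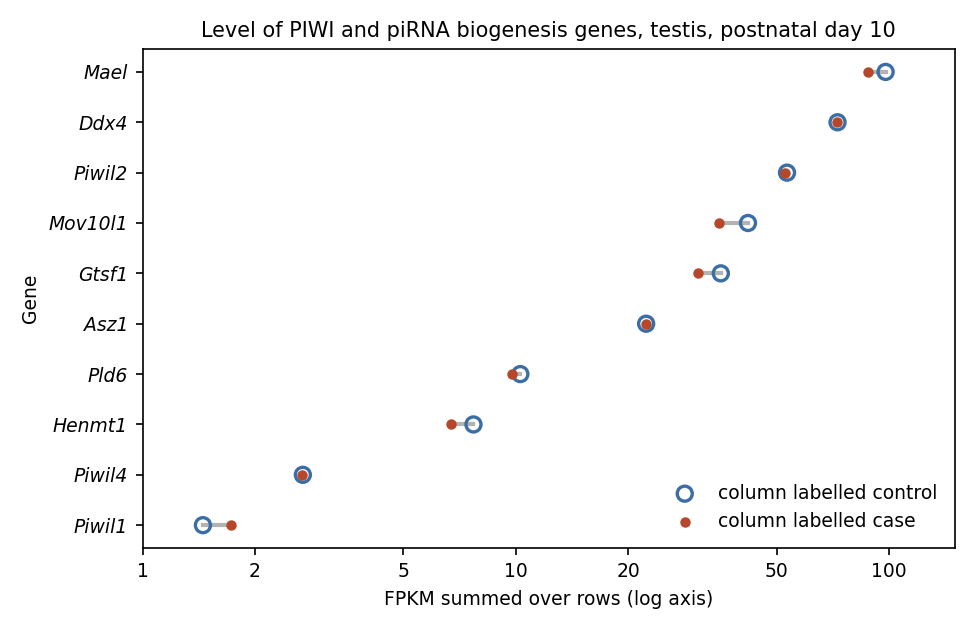
FPKM summed over the rows of each gene (log x axis) in the case column (filled points) and the control column (open circles), 1 pooled value per group. The order from Piwil1 at 1.73 and 1.45 FPKM to Mael at 87.7 and 97.9 FPKM is the same in both columns.

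Of the PIWI genes, 1 was abundant as RNA and the others low. Piwil2 (NM_021308; mm10 chromosome 14, 70372480 to 70429094) was at 52.6 FPKM in the case column and 53.3 in the control column (p = 0.941, the authors' deposited table). Its level was thus nearly equal in the columns, a 1.01-fold difference. Piwil4 (NM_177905; chromosome 9, 14702358 to 14740733) was at 2.68 and 2.69 FPKM (p = 0.993, the authors' deposited table). Piwil1 (NM_021311; chromosome 5, 128736246 to 128755474), the PIWI protein of pachytene cells and round spermatids, was at 1.73 and 1.45 FPKM (p = 0.603, the authors' deposited table). It was the only one of the 10 genes with the higher value in the case column, 1.19-fold, at the lowest level of all.

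The pair of RNA helicases gave different values, and the difference between them was not tested. Mov10l1, the helicase that binds piRNA precursors and feeds them into processing, is needed for all piRNA classes. Mov10l1 (NM_031260; chromosome 15, 88982994 to 89055152) was at 35.0 FPKM in the case column and 41.9 in the other, 1.20-fold lower (p = 0.277, the authors' deposited table). That was the lowest log2(FPKM + 1) difference of the 10 genes, -0.25, and 4.60% of all genes with a mean of at least 1 FPKM had a lower one. That share is a rank and not a p-value, and the added 1 understates the change of low genes. Ddx4 (chromosome 13, 112598333 to 112652310), the VASA homologue of germ granules and a general germ cell marker, was at 72.3 and 72.7 FPKM in its main row (NM_001145885) (p = 0.973, the authors' deposited table). Its other row (NM_010029) was at 0.323 and 0.0943 FPKM, was marked as not tested in the authors' deposited table, and made up 0.445% and 0.130% of the gene's FPKM. Set against Ddx4 in the same column, Mov10l1 was at 0.481 of its FPKM in the case column and 0.576 in the other, while Piwil2 was at 0.725 and 0.732.

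Among the factors of germ granules and the mitochondrial surface, Mael and Gtsf1 stood lower in the case column, and Asz1 and Pld6 nearly level. Mael (NM_175296; chromosome 1, 166201385 to 166238744), maelstrom, a germ granule protein needed for transposon silencing, was at 87.7 and 97.9 FPKM, 1.12-fold lower (p = 0.514, the authors' deposited table). Gtsf1 (NM_028797; chromosome 15, 103402459 to 103430427), a small zinc finger protein that binds PIWI proteins and promotes their cleavage of targets, was at 30.8 and 35.4 FPKM, 1.15-fold lower (p = 0.571, the authors' deposited table). Asz1 (NM_023729; chromosome 6, 18050964 to 18109061), also called GASZ, a mitochondrial anchor of germ granule proteins, was at 22.3 and 22.4 FPKM (p = 0.993, the authors' deposited table). Pld6 (NM_183139; chromosome 11, 59783893 to 59787657), the mitochondrial counterpart of the fly nuclease Zucchini that forms piRNA ends, was at 9.76 and 10.3 FPKM (p = 0.837, the authors' deposited table). Differences between these 4 ratios were not tested. In the RefSeq table the noncoding gene Gm52195 overlaps Gtsf1, and the noncoding genes Gm10706 and Gm34651 and the pseudogene Gm15586 overlap Piwil4. The pseudogene Gm22725 and the small nuclear RNA gene Gm24890 overlap Piwil2, and the small nuclear RNA gene Gm23737 overlaps Mov10l1. Whether the counting used strand is not stated in the sources, so reads of these genes may be mixed.

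Henmt1, the methyltransferase that adds the protecting methyl group to piRNA 3′ ends, has 2 rows at the same locus (chromosome 3, 108940084 to 108960776), and their values lay on opposite sides. The row of NM_001078646 was at 1.66 FPKM in the case column and 3.67 in the other, 2.21-fold lower (p = 0.108, the authors' deposited table). This was the smallest p of any row of the 10 genes. The row of NM_025723 was at 5.04 and 4.03 FPKM, 1.25-fold higher (p = 0.495, the authors' deposited table). The first transcript thus made up 24.8% of the gene's FPKM in the case column and 47.7% in the other. Summed, Henmt1 was at 6.71 and 7.70 FPKM, so its direction as a gene was that of the minor transcript. The shift between transcripts was not tested, and reads shared by both are assigned by the authors' program.

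The authors' deposited table held 11 tested rows of these genes, of which 0 passed a q-value of 0.05, where 0.0514% of all 13629 tested rows did, and q was 0.999966 in each of the 11. Unadjusted, 0 rows had p under 0.05, against 1.28% of all tested rows. The deposited p was the two-sided normal p of the deposited test statistic in all 13586 tested rows with FPKM above 0 in both columns, to within 2.77e-06. If that statistic is the log ratio over its standard error, which the sources used here do not state, it implies an error and a 95% interval for each row. The implied standard errors ran from 0.24 on the log2 scale (Mov10l1) to 0.71 (the NM_001078646 row of Henmt1), with a median of 0.34 over all tested rows. For Piwil2 the interval of the ratio of case to control ran from 0.711 to 1.37, for Ddx4 from 0.716 to 1.38, for Mael from 0.644 to 1.25 and for Mov10l1 from 0.602 to 1.16. For the low genes it was wider, from 0.526 to 1.89 for Piwil4 and from 0.619 to 2.29 for Piwil1. An unadjusted p of 0.05 would thus have needed a 1.39-fold difference in Piwil2, Mael, Mov10l1 or Ddx4 and a 1.92-fold difference in Piwil1, so the smaller differences above were not detectable with this test.

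**Figure D2:**
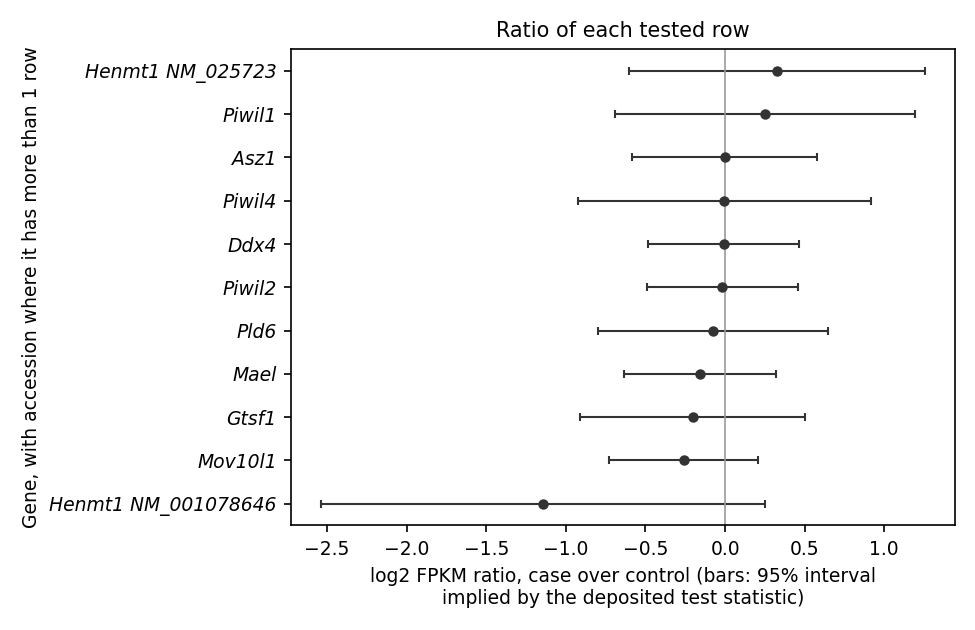
Log2 ratio of FPKM, case over control, for the 11 tested rows of the 10 genes. Bars are the 95% intervals implied by the deposited test statistic, and each of them spans 0, the widest being that of the NM_001078646 row of Henmt1 at -1.14.

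As a group the 10 genes stood slightly lower in the case column. Summed over rows, 9 of 10 were lower there, against 39.2% of all genes with a mean of at least 1 FPKM, and 8 of 10 when each gene was read from its highest row, where Henmt1 turned. The median difference of log2(FPKM + 1) was -0.04, against 0.03 over all genes, with values from -0.25 to 0.15. Of the 9 lower values, those of Mov10l1 (-0.25), Gtsf1 (-0.20), Henmt1 (-0.18), Mael (-0.16) and Pld6 (-0.07) were the lowest. Piwil2 (-0.02), Ddx4, Piwil4 and Asz1 lay nearer to 0, the last 3 of them within 0.004 of it. Together the 10 genes summed to 322 FPKM in the case column and 346 in the other. No test stands behind the count of lower genes, since they are not replicates of a condition.

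Other genes of the piRNA pathway, 24 in number, were taken from a list that includes the Tudor domain proteins of germ granules. Of these, 19 had a mean of at least 1 FPKM, 12 of them lower and 7 higher in the case column, with a median difference of -0.07 and a range from -0.37 to 0.22, and 0 of the 18 with an authors' test passed a q-value of 0.05 or an unadjusted p of 0.05. Mybl1 (A-MYB), the transcription factor that switches on pachytene piRNA loci, was at 4.41 and 6.01 FPKM (p = 0.215, the authors' deposited table), the smallest p of that list. Rnf17, a Tudor domain protein of germ cells, was at 16.5 and 19.5 FPKM, Gpat2, a mitochondrial acyltransferase-like protein that binds PIWIL2, at 20.4 and 24.1 FPKM, and Tex15, needed for piRNA-guided methylation of transposons, at 33.6 and 38.9 FPKM, all from the authors' deposited table. The 4 listed genes under that level were Tdrd6, Dnmt3l, Nanos2 and Gtsf1l, and Spocd1 was not analysed here.

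The Argonaute genes, the branch of the family found in most tissues, were listed together with the rest of the microRNA machinery. Of 13 genes 3 were lower and 10 higher, with a median of 0.07, and 0 of the 12 with an authors' test had p under 0.05. Over all genes with a mean of at least 1 FPKM, 39.2% were lower and the median was 0.03. Ago2, the slicing Argonaute, was at 7.18 and 6.13 FPKM and Ago1 at 10.0 and 8.92 FPKM, but Ago4 was at 2.44 and 3.13 FPKM and Ago3 at 4.36 and 4.95 FPKM, all from the authors' deposited table. The difference between the PIWI and Argonaute lists was not tested.

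Markers of germ cell stages and of somatic cells are given beside these values, without a test of any list. The same share of 39.2% of all genes lower in the case column stands beside each count. Of 20 meiotic prophase genes, 20 were lower in the case column, with a median of -0.58 and a summed level of 452 against 649 FPKM. The highest of their 20 differences was -0.06. Of 18 tested members in the authors' deposited table, 0 had passed a q-value of 0.05 and 7 had an unadjusted p under 0.05. Of the 11644 tested genes with a mean of at least 1 FPKM, each read from its highest row, 6 passed that q-value and 96 had such a p. In each of the germ cell, undifferentiated, Sertoli and Leydig lists 1 gene had p under 0.05 (Tex101, Lin28a, Rhox5 and Hsd17b3), and in the peritubular and stromal list 0 had. Of the meiotic prophase genes, Meiob, which binds single-stranded DNA in recombination, had 1.92 and 6.82 FPKM (p = 0.000601, q = 0.492, the authors' deposited table). Hormad1, of meiotic chromosome axes, had 15.6 and 29.8 FPKM (p = 0.00339, q = 0.999966, the authors' deposited table). The list of germ cell markers (12 genes, with Tex101 and Stra8 among them) had a median of -0.21, with 9 lower and 3 higher. It summed to 696 against 854 FPKM, of which Tex101, with the lowest difference, had 87.0 against 165 FPKM. Ddx4, which is outside that list, was at 72.6 and 72.8 FPKM summed over its rows. Undifferentiated spermatogonia markers (13 of 15 analysed, with Lin28a among them) had a median of 0.05, with 4 lower. Sertoli cell markers (12 genes) had a median of 0.06, with 5 lower and 7 higher, and summed to 3727 and 3755 FPKM. Clu alone, outside the rule for named genes, was at 2028 and 2251 FPKM, a wider gap than that of the sums. The direction of the sums thus rests on that gene. Rhox5, also lower, was at 8.90 and 19.3 FPKM, and Cst9, among the higher, at 596 and 416 FPKM. All 8 Leydig cell markers were higher, with a median of 0.34 and a sum of 386 against 305 FPKM, and all 8 peritubular and stromal markers were higher, with a median of 0.22 and a sum of 1029 against 896 FPKM. None of these marker lists held a gene at 0 in either column. The part that cell makeup has in the small lower values was not tested.

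**Figure D3:**
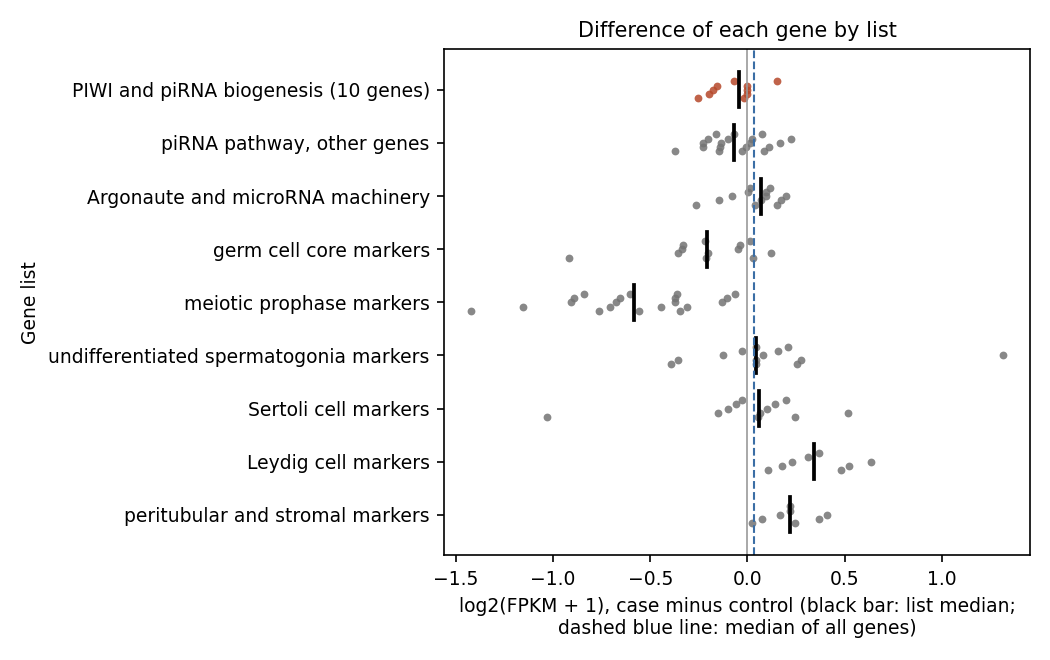
Difference of log2(FPKM + 1), case minus control, for each gene with a mean of at least 1 FPKM (points), by list, with the list median (black bars) and the median of all genes, 0.03 (dashed line). The 10 PIWI and piRNA biogenesis genes lie between -0.25 and 0.15, and the 20 meiotic prophase genes all lie below 0.

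The promoters of 9 of the 10 genes, all but Piwil2, were in the RefSeq table of assembly GRCm38.p6. Each was given as 300 bases from 250 before to 50 after the transcript start, and Piwil2 is in no promoter count below. The transcript starts used for Piwil4 and Henmt1 lie 61 and 473 bases after the start in the expression table. The others are at the same base. The Henmt1 window thus lies wholly after that start. Piwil4 and Pld6 have 2 promoters each in the RefSeq table, of which the nearest to that start was used. The 9 promoters were searched on both strands for 3 motifs, none of which contains another. The first was the E-box, CACGTG, which reads the same on both strands and binds basic helix-loop-helix factors. It was present in 5 of the 9, those of Piwil1, Mov10l1, Mael, Pld6 and Ddx4, and in 7.15% of all 32851 promoters of that table. It was in 10.3% of the promoters of genes with a mean of at least 1 FPKM, and in 11.6% of the promoters with at least 18 CpG, the lowest number among these 5. A core motif of MYB factors, to which A-MYB belongs and which was written AACNGNC for the search, was in 4 of the 9 promoters and in 32.8% of all promoters. The box bound by SP1, a factor of CpG-rich promoters, was searched as GGGCGG and was in 7 of the 9 promoters. It was in 35.7% of all promoters, but in 63.6% of those of genes with a mean of at least 1 FPKM and in 79.6% of those with at least 18 CpG, near the share of the 9. The MYB core was in 32.9% and 31.0% of the same sets. The 9 promoters held between 11 and 38 CpG, with a median of 18, against 7 over all promoters and 21 over those of genes with a mean of at least 1 FPKM. The member with the highest level (Mael), the helicases Ddx4 and Mov10l1, and Piwil1, which alone has 2 E-boxes, are printed from 250 bases before the start to the start, with the E-box in capitals. Piwil1 is chr5:128735996-128736245 on the plus strand, Mov10l1 chr15:88982744-88982993 on the plus strand, Mael chr1:166238745-166238994 on the minus strand and Ddx4 chr13:112652311-112652560 on the minus strand.
Piwil1: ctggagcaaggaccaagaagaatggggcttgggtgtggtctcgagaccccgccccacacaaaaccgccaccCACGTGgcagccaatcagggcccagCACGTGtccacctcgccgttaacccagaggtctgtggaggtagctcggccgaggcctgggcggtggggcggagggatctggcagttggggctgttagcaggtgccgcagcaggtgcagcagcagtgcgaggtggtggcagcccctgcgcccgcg
Mov10l1: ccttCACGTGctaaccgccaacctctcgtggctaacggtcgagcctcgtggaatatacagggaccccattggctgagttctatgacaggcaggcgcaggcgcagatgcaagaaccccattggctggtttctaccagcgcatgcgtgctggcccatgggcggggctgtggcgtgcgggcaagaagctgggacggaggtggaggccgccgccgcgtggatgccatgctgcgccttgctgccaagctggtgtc
Mael: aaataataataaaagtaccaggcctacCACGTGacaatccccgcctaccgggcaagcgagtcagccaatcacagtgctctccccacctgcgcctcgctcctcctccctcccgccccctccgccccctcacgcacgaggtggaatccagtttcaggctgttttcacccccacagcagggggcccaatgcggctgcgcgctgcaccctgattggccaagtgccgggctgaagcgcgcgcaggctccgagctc
Ddx4: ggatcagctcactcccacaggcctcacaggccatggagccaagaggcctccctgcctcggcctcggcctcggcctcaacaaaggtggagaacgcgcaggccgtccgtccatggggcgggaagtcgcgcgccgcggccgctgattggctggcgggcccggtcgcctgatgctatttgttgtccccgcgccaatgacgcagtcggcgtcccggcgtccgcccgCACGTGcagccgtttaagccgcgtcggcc

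The E-boxes of Piwil1 begin 179 and 154 bases before the start, that of Mov10l1 at 246, that of Mael at 223, that of Pld6 at 33 and that of Ddx4 at 29. Those of Pld6 and Ddx4 thus lie close to the start and the others farther from it. Of the 5 genes with an E-box 4 were lower in the case column, with a median difference of -0.07, and of the 4 without one 4 were lower, with a median of -0.09. The genes without one include Henmt1, for which no base before the start in the expression table was searched. Such a match describes letters in a window, and no binding was measured.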

How the data were processed

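Testis RNA was sequenced in 6 libraries, 3 labelled Lin28a knockout and 3 wild type. The submitters' processing notes name TopHat2 2.0.9 and mm10. For the program that made the FPKM and the test, the sources used here give no name. The authors deposited FPKM as 1 value per group, per the file headers. Beside it the authors deposited a p-value and a q-value for each row, a status, a score (the test statistic) and a log2 ratio of control over case. How the libraries entered the authors' test is not stated, and if they are not separate animals its p-values measure technical spread. Depth is unknown, and no value per library was analysed, so no test was run here and calls are the authors', at a q-value under 0.05.

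Rows were matched to the 10 genes by the names in the table. Other rows took symbols by accession from RefSeq (GRCm38.p6), or else from the table. FPKM was summed over the rows of a gene and compared as log2(FPKM + 1), which understates the change of low genes, for genes with a mean of at least 1 FPKM. Starts in the table were read as counting from 0, and 1 was added. Python 3.11.15, pandas 2.3.3 and scipy 1.17.1 were used. The log2 difference and the collapse of rows to genes were checked on made-up values without noise, and the other steps were not checked so. The genes named from each other list are the 4 with the smallest authors' p-value, from which the text gives some. The members, the lists and the motifs were chosen with earlier results of these data known. The alternatives tried are given in the closing section.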

Additional observations from a re-analysis of the deposited data

How the results depend on the processing

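Under 7 alternatives (a pseudocount of 0.1, no filter, a mean of at least 5 FPKM, the highest row only, columns rescaled by their median ratio of 1.03, quantile normalization, only rows with a completed test) and with rows matched by accession, the median of the 10 genes stayed below 0, between -0.11 and -0.01. Lower were 8 of the 8 genes left at a mean of at least 5 FPKM, 8 of 10 by the highest row, and 9 of 10 with no filter, under both scalings and with rows of a completed test. By accession 9 genes matched, all but Piwil4, and 0 of their rows were called. All 56 medians of the other lists kept their sign and moved by less than 0.1. At a mean of at least 5 FPKM only Piwil2 of the PIWI genes was left, so 1 was lower in place of 2. Of 68 values of single members, a set added after seeing the data, 67 kept their sign and moved by less than 0.1, and 1 reversed: Henmt1, at 0.26 in its highest row alone. Quantile normalization put 47.6% of all genes lower, in place of 39.2%, and rescaling by the median makes lower and higher genes equal in number, with 9 of the 10 genes lower under both. Leaving out single libraries could not be run. No paired analysis was possible because the table pools the 3 libraries of a group into 1 value.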

Other observations

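Set against Dazl, a germ cell RNA-binding protein, 4 of the genes that stood lower in the case column came close to level, and the others stood higher there. Dazl itself was at 192 FPKM in that column and 222 FPKM in the other (p = 0.437, the authors' deposited table). It lies outside the rule for named genes and was singled out after its values were seen. Gtsf1 was at 0.160 of the Dazl level in both columns, Mael at 0.457 and 0.442, Mov10l1 at 0.182 and 0.189 and Henmt1 at 0.0349 and 0.0348. Piwil2, which was level in FPKM, was at 0.274 and 0.241, and Ddx4 at 0.378 and 0.329. Likewise Pld6 was at 0.0508 and 0.0464, Asz1 at 0.116 and 0.101, Piwil4 at 0.0140 and 0.0121 and Piwil1 at 0.00899 and 0.00655. The synaptonemal complex gene Sycp3, by comparison, was at 0.360 and 0.563; its row failed the authors' test and it too lies outside that rule. Which germ cell gene serves as the reference thus changes which of the 10 genes look equal, as Mov10l1 differs when set against Ddx4 and hardly differs when set against Dazl. None of these ratios has a test.

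Among 17 promoters of the other piRNA pathway genes, the E-box was present in 3, those of Tdrd1, Tdrd9 and Fkbp6, and in Tdrd9 and Fkbp6 it was present 2 times. It was in 5 of 17 promoters of meiotic prophase genes, 3 of 11 of the germ cell marker list and 0 of 11 of the undifferentiated spermatogonia list. Of the Argonaute and microRNA list 0 of 12 promoters held it. For the Sertoli list it was 1 of 7, and for the Leydig and the stromal lists 0 of 5 each. Tdrd1, a Tudor domain partner of PIWIL2, was at 24.6 and 24.3 FPKM summed over its rows, Tdrd9, a helicase partner of PIWIL4, at 17.6 and 18.5 FPKM, and Fkbp6, a chaperone partner in piRNA loading, at 121 and 134 FPKM. These 3 genes also lie outside the rule for named genes.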
